A study of Rattus norvegicus with 9 samples.

Results

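Complex I of the respiratory chain was examined through the rat genes whose symbols begin with Ndufa, Ndufb, Ndufc, Ndufs, Ndufv or Ndufaf and that have a probe set carrying that symbol alone. There were 37 such genes, out of 14506 genes with a symbol of their own on the array, and 41 probe sets stood behind them, of 29215 on the array. A gene with more than 1 probe set was represented by the brightest of them, as averaged over all arrays. By role, 6 genes encode core subunits, 26 accessory subunits and 3 assembly factors. The other 2 are Ndufa4, now counted as a subunit of complex IV, and Ndufs6-ps1, whose symbol is that of a pseudogene. The subunits encoded by mitochondrial DNA were not analysed here.

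Complex I is the entry point for electrons from NADH. Its matrix arm takes them up on a flavin in the N module and passes them along iron-sulfur clusters through the Q module to ubiquinone, and its membrane arm, divided here into a proximal and a distal part, pumps protons. Core subunits carry out this chemistry, accessory subunits surround and stabilize them, and assembly factors help to build the complex without remaining in it. In skeletal muscle, complex I is most abundant in oxidative fibres rich in mitochondria.

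RNA came from whole tibialis anterior muscle (TIB) samples, taken from 9 young adult male rats of the Sprague Dawley strain that had been kept on a standard diet before the experiment and always had water. Each rat was measured on its own Affymetrix Rat Gene 1.0 ST array. The fed rats (Fed, n = 3) were sampled with a full stomach, and the others were fasted until phase 2 (P2, n = 3), when body proteins are spared, or phase 3 (P3, n = 3), when protein loss accelerates. No mutation or drug is named for any group. Phases were judged from the daily rate of body mass loss, so P2 and P3 differ in fasting time and in body condition together. Values are log2 intensities after RMA. Array medians lay between 5.80 and 5.90, and across probe sets Pearson's r was at least 0.987 within groups and at most 0.987 between groups. Fast fibre markers such as Ckm and Acta1 were at a median of 13.41 to 13.57 in the 9 rats and were the brightest of the marker lists.

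The 3 comparisons were taken from a single limma fit over all probe sets, and a gene was called at an adjusted p under 0.05. Over all probe sets, 4.15% were called lower and 5.13% higher in P2 versus Fed. In P3 versus Fed it was 13.4% and 15.8%, and in P3 versus P2 7.52% and 8.50%. With a single probe set per named gene, the share called lower was 5.57% for P2 versus Fed, 17.1% for P3 versus Fed and 10.4% for P3 versus P2. The median log2 fold change over all probe sets was 0.01, 0.00 and -0.01 in these comparisons. The 2 comparisons with Fed share the fed rats, and those with P2 share the P2 rats, so their values are given side by side.

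The transcripts of complex I fell in P2 and fell further in P3. Of the 37 genes, 26 were lower in P2 than in Fed, 35 were lower in P3 than in Fed and 34 were lower in P3 than in P2, and none was higher in any comparison. All 32 core and accessory subunits were lower in P3, to a median 0.401 of the fed level, with a median log2 fold change of -1.32. In P2, 25 of these 32 were lower, with a median log2 fold change of -0.51, which is 0.701 of the fed level. From P2 to P3, all 32 were lower again, with a median of -0.79. Each fasted rat showed the shift. For each rat, the median over the 32 genes of the difference from the fed mean was taken. It was near 0 in Fed by construction and averaged -0.53 ± 0.10 (SD, n = 3) in P2 and -1.34 ± 0.09 in P3, with P2 rats between -0.65 and -0.45 and P3 rats between -1.43 and -1.26.

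**Figure D1:**
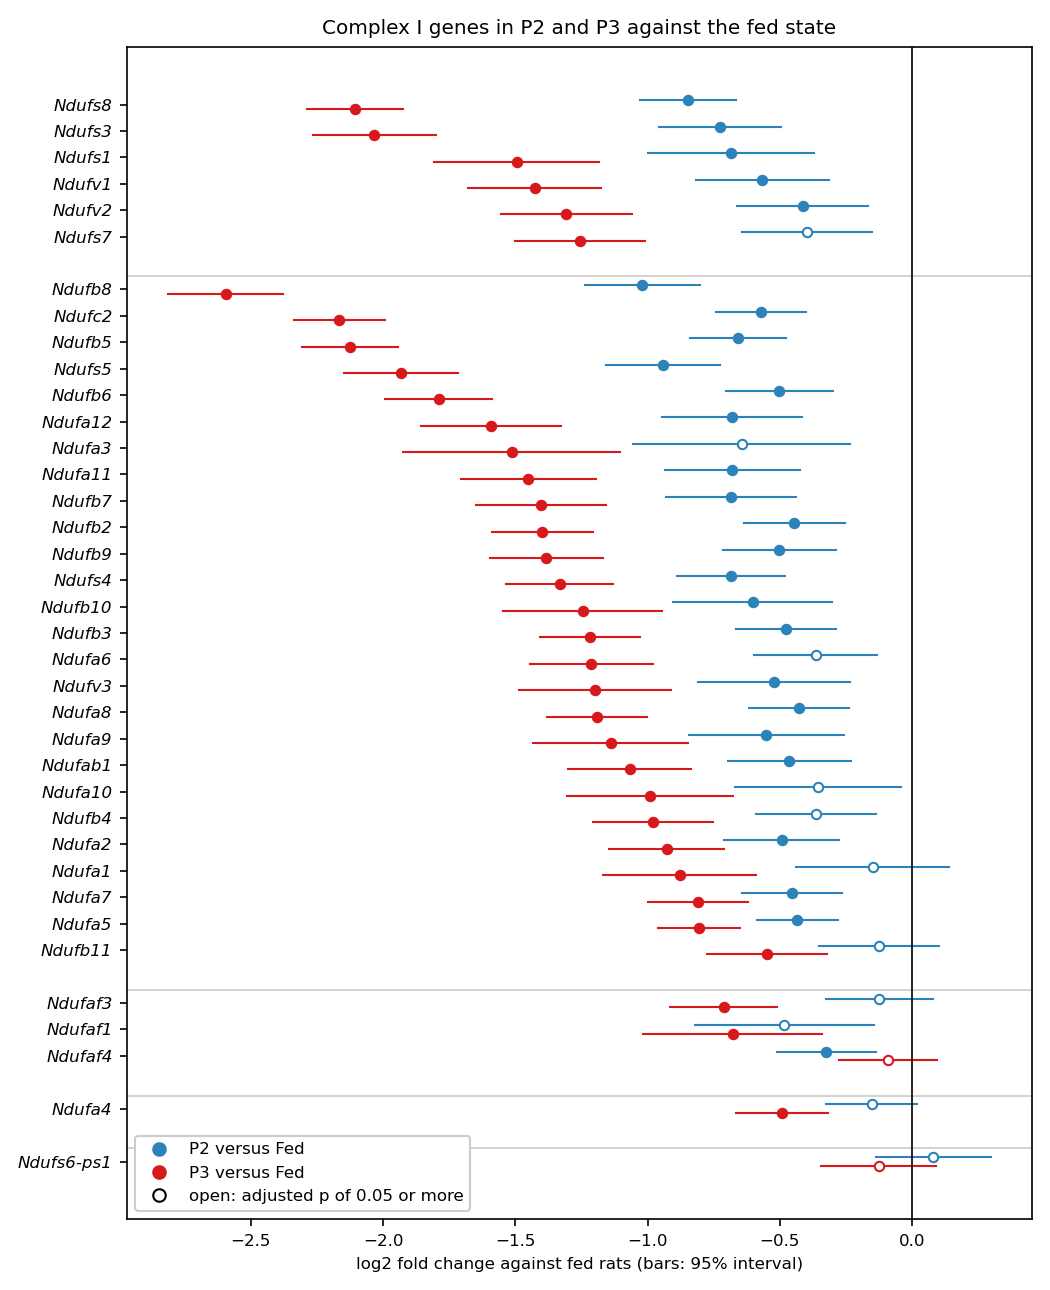
Log2 fold change of each of the 37 genes against Fed, for P2 (blue) and P3 (red), with the 95% interval of limma as a bar, grouped from top to bottom into core subunits, accessory subunits, assembly factors, Ndufa4 and Ndufs6-ps1. Filled points have an adjusted p under 0.05. All 32 subunits lie left of 0 in both comparisons, and their P3 points, from -2.60 to -0.55, lie left of their P2 points.

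The groups hardly overlapped. Every P3 rat was below every fed rat and below every P2 rat for all 32 subunits, an arrangement found in 20.1% of all probe sets for P3 versus Fed and in 13.6% for P3 versus P2. Every P2 rat was below every fed rat for 30 of 32, against 10.9% of all probe sets. The exceptions in P2 were Ndufa1 and Ndufb11. In P3, 25 of the 32 subunits were at or below 0.5 of the fed level, and for 20 the whole 95% interval, not adjusted for the number of genes, was below it. In P2 only Ndufb8 was at or below 0.5 of the fed level. The fall from P2 to P3 was the larger of both steps in 28 of 32 subunits, all but Ndufs4, Ndufa2, Ndufa7 and Ndufa5, but the steps share the P2 rats and their difference was not tested.

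Among the core subunits, 5 of 6 were lower in P2 and all 6 in P3 and in P3 versus P2, with medians of -0.63, -1.46 and -0.88. Ndufs8, which carries iron-sulfur clusters close to the ubiquinone site, fell most. It was at 10.32, 10.53 and 10.41 in the fed rats, 9.70, 9.52 and 9.50 in P2 and 8.32, 8.33 and 8.30 in P3. The 3 groups were apart, and the P3 rats lay within a few hundredths of each other. Its log2 fold change was -0.85 ± 0.08 (SE) in P2 (adjusted p = 0.000493), and -2.11 ± 0.08 for P3 (adjusted p = 3.92e-07), or 0.232 of the fed level.

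Ndufs3, a scaffold of the Q module, gave 11.40, 11.32 and 11.20 in Fed, 10.73, 10.57 and 10.44 in P2 and 9.43, 9.20 and 9.19 in P3. The order of the groups held for every rat. The log2 fold change was -0.73 ± 0.10 in P2 (adjusted p = 0.00302) and reached -2.03 ± 0.10 in P3 (adjusted p = 1.51e-06). Ndufs1, the largest subunit of the N module and the one whose protein the study also followed by Western blot, was at 12.25, 12.30 and 12.15 in Fed, 11.23, 11.83 and 11.58 in P2 and 10.83, 10.71 and 10.68 in P3. The P2 rats were more spread than either other group, with P2 1 the lowest of them, and no group overlapped another. Its log2 fold change was -0.69 ± 0.14 in P2 (adjusted p = 0.0162), and -1.49 ± 0.14 for P3 (adjusted p = 4.46e-05). Without Fed 1, Fed 2 or P2 3 the P2 value passed no longer, with adjusted p of 0.0547, 0.0662 and 0.0510. For the NDUFS1 protein in TIB, the study reported a decrease that reached significance in P2 but not in P3.

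Ndufs7, the iron-sulfur subunit next to the ubiquinone site, changed least of the core in P3. It read 11.11, 11.16 and 11.20 in Fed, 10.92, 10.80 and 10.55 in P2 and 10.03, 9.76 and 9.92 in P3. All P2 rats were below all fed rats, but the P2 difference of -0.40 ± 0.11 did not pass (adjusted p = 0.0532), whereas the P3 difference of -1.26 ± 0.11 did (adjusted p = 2.91e-05). The remaining core subunits were Ndufv1, which binds NADH and the flavin, at -0.57 in P2 and -1.43 in P3, and Ndufv2, its iron-sulfur partner, at -0.41 and -1.31. The P2 count of the core depended on single rats. It was 3 without Fed 1, 2 without Fed 2 and 2 without P2 3, against 4 to 6 without any other rat, while in P3 it was 6 whichever rat was left out.

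**Figure D2:**
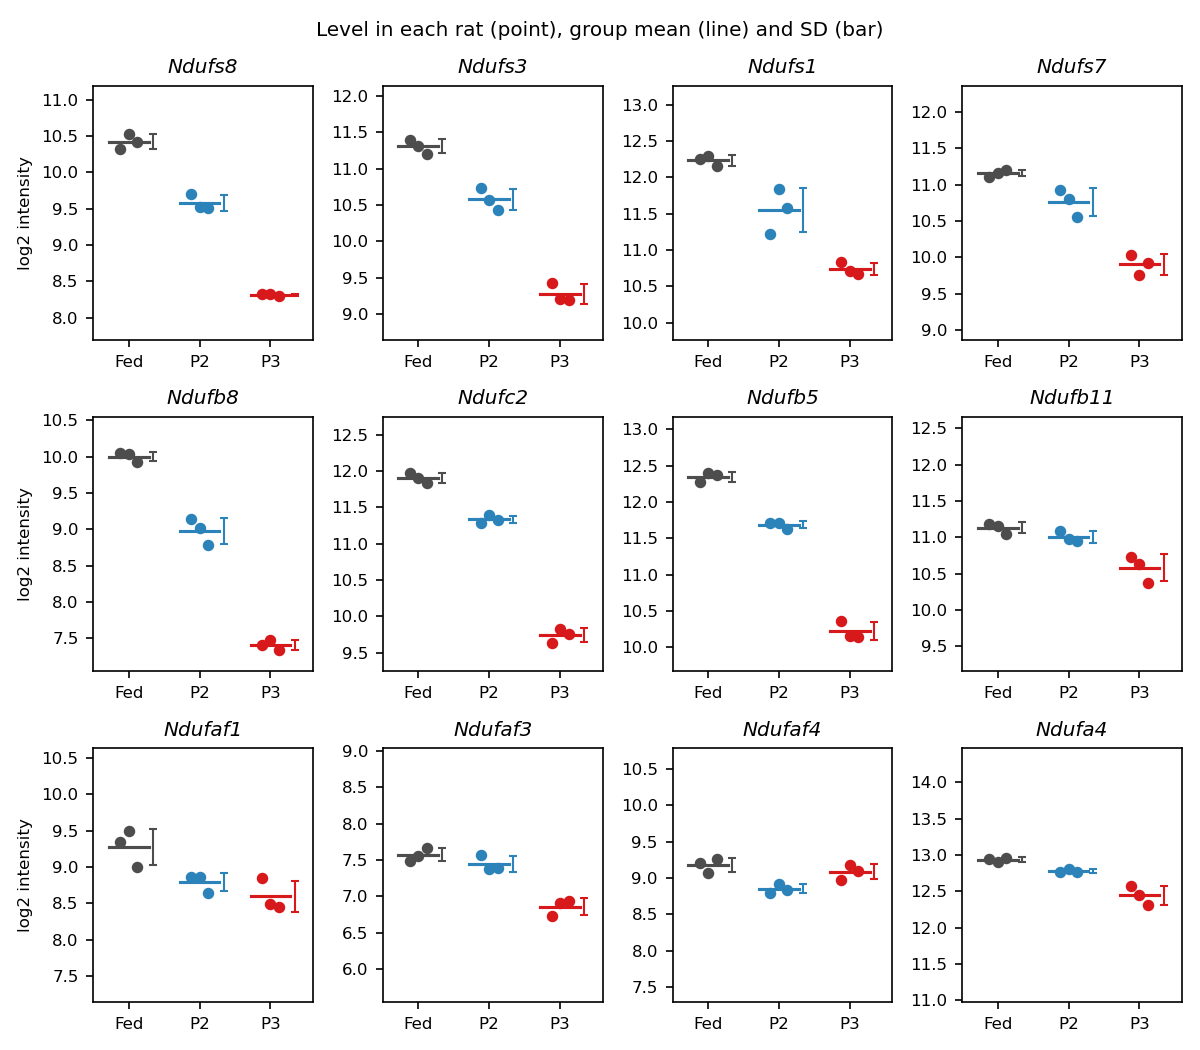
Log2 intensity of 12 genes in each rat (points), with the mean (line) and SD (bar) of Fed, P2 and P3, n = 3 rats each. Each panel spans the same range of log2 units around its own centre, so slopes compare between panels. Ndufs8, Ndufb8, Ndufc2 and Ndufb5 step down at both stages, Ndufb11 and Ndufa4 change less, and Ndufaf4 is lowest in P2.

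Of the 26 accessory subunits, 20 were lower in P2 and all 26 in P3 and in P3 versus P2, with median log2 fold changes of -0.50, -1.23 and -0.74. Their P3 values ran from -2.60 to -0.55. Ndufb8, a subunit of the distal membrane arm often used as the marker of complex I on blots, had the largest fall of all 37 genes. It was at 10.04, 10.03 and 9.92 in Fed, 9.14, 9.02 and 8.79 in P2 and 7.40, 7.48 and 7.34 in P3. No rat of a group reached another group. The log2 fold change was -1.02 ± 0.10 in P2 (adjusted p = 0.000476), and -2.60 ± 0.10 for P3 (adjusted p = 3.74e-07), which left 0.165 of the fed level in P3.

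Ndufc2, of the proximal membrane arm, was at 11.98, 11.91 and 11.83 in Fed, 11.28, 11.39 and 11.33 in P2 and 9.64, 9.82 and 9.76 in P3. Most of its change came late, with -0.57 ± 0.08 in P2 (adjusted p = 0.00226), and -2.17 ± 0.08 for P3 (adjusted p = 3.33e-07), and the P3 rats were far below all others. Ndufb5, of the distal membrane arm, read 12.27, 12.40 and 12.37 in Fed, 11.72, 11.72 and 11.63 in P2 and 10.36, 10.16 and 10.14 in P3. It too separated the groups without overlap, at -0.66 ± 0.08 in P2 (adjusted p = 0.00153), and -2.13 ± 0.08 for P3 (adjusted p = 3.87e-07).

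At the other end stood Ndufb11, also of the distal membrane arm. It was at 11.19, 11.16 and 11.04 in Fed, 11.09, 10.98 and 10.94 in P2 and 10.73, 10.63 and 10.38 in P3. P2 1 lay above Fed 3, and only the P3 rats were apart. The P2 difference of -0.12 ± 0.10 did not pass (adjusted p = 0.540) and the P3 difference of -0.55 ± 0.10 did (adjusted p = 0.00273). The 95% intervals in P3, from -2.81 to -2.38 for Ndufb8 and from -0.78 to -0.32 for Ndufb11, were apart, although probe sets differ in how intensity follows RNA amount and this difference between genes was not tested.

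The other accessory subunits lay between these in P3. Ndufs5 (-1.93), Ndufb6 (-1.79), Ndufa12 (-1.59), Ndufa3 (-1.51), Ndufa11 (-1.45), Ndufb7 (-1.40), Ndufb2 (-1.40), Ndufb9 (-1.38) and Ndufs4 (-1.33), the last a subunit that helps to hold the N module, were at or below 0.4 of the fed level. Ndufb10 (-1.25), Ndufb3 (-1.22), Ndufa6 (-1.21), Ndufv3 (-1.20), Ndufa8 (-1.19), Ndufa9 (-1.14) and Ndufab1 (-1.07), the mitochondrial acyl carrier protein, were lower by more than 1 on the log2 scale. Ndufa10 (-0.99), Ndufb4 (-0.98), Ndufa2 (-0.93), Ndufa1 (-0.88), Ndufa7 (-0.81) and Ndufa5 (-0.81) were lower by less. In P2, the 6 that did not pass were Ndufa3 (-0.64, adjusted p = 0.0607), Ndufa6 (-0.37, adjusted p = 0.0616), Ndufa10 (-0.36, adjusted p = 0.167), Ndufb4 (-0.36, adjusted p = 0.0560), Ndufa1 (-0.15, adjusted p = 0.572) and Ndufb11. Leaving out single rats gave 14 to 23 of 26 in P2 and 26 of 26 in P3.

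By position in the complex, the falls were of similar size. The core subunits measured here were all in the N and Q modules, and the membrane arm genes were all accessory subunits. In P3 the median log2 fold change was -1.31 for the 9 subunits of the N module, -1.26 for the 5 of the Q module, -1.45 for the 7 of the proximal membrane arm and -1.38 for the 11 of the distal membrane arm, and all of them passed. In P2 the medians were -0.52, -0.55, -0.57 and -0.50, with 8 of 9, 4 of 5, 4 of 7 and 9 of 11 lower. Each part of the complex held both large and small falls. Q module values in P3 ran from -2.11 for Ndufs8 to -0.81 for Ndufa5, and those of the distal membrane arm from -2.60 to -0.55. Over the 32 subunits the fed level and the P3 log2 fold change had a Pearson's r of -0.33 and the fed level and the P2 log2 fold change one of -0.11, a description over genes that share the same arrays.

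**Figure D3:**
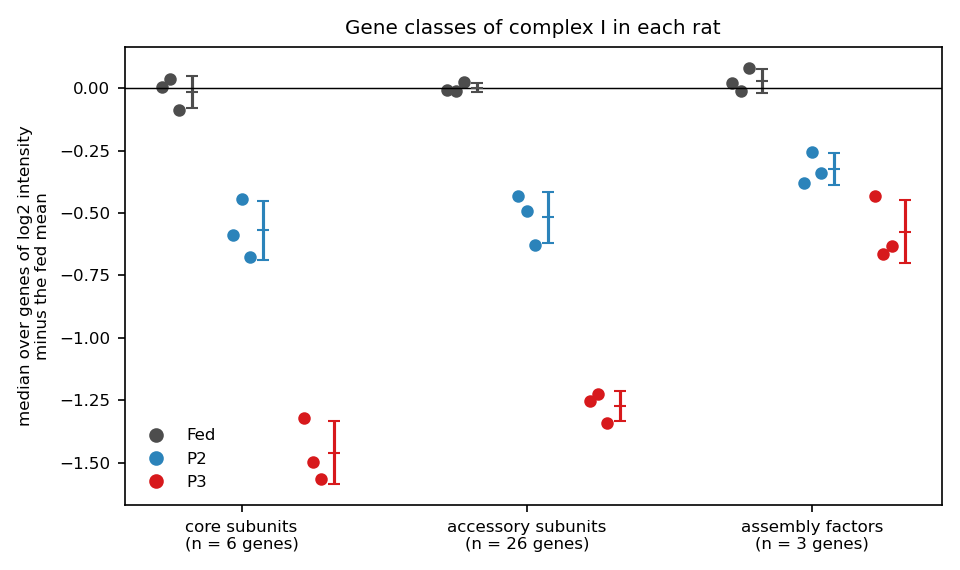
Median over the genes of a class of the log2 intensity minus the mean of the fed rats, for each rat (points), with the mean and SD of 3 rats beside them. Core and accessory subunits stand at -1.57 to -1.23 in the P3 rats, and the 3 assembly factors at -0.66 to -0.43.

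Core subunits fell slightly more than accessory subunits. Since the core subunits measured were all in the N and Q modules, role and position were not separated in this contrast. The medians differed by -0.12 in P2 and -0.23 in P3, but the ranges overlapped widely and the genes with the largest falls, Ndufb8, Ndufc2 and Ndufb5, were accessory. Without P2 1 the P2 difference was 0.01, and without Fed 2 the P3 difference was -0.13. The median of the accessory subunits was below that of the assembly factors by -0.18 in P2 and -0.55 in P3, where it was -0.72 without Fed 2. With only 3 assembly factors these differences are descriptions.

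The assembly factors did not move as one. Of 3, only 1 was lower in P2, 2 in P3 and 1 in P3 versus P2. Ndufaf3, which acts with Ndufaf4 on the Q module, was at 7.49, 7.56 and 7.66 in Fed, 7.57, 7.38 and 7.40 in P2 and 6.72, 6.91 and 6.94 in P3. P2 and Fed overlapped, and the P3 rats were below both. Its log2 fold change was -0.12 ± 0.09 in P2 (adjusted p = 0.489), and -0.71 ± 0.09 for P3 (adjusted p = 0.000290), and it fell by 0.59 from P2 to P3 (adjusted p = 0.00193).

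Ndufaf1, a factor for the membrane arm, was at 9.34, 9.49 and 9.00 in Fed, 8.86, 8.86 and 8.65 in P2 and 8.85, 8.50 and 8.44 in P3. The 3 fed rats were spread by about as much as the P2 difference, and P3 1 lay among the P2 rats. The P2 value of -0.48 ± 0.15 did not pass (adjusted p = 0.0842) but did without Fed 3 (adjusted p = 0.0419). In P3 the value was -0.68 ± 0.15 (adjusted p = 0.00752), and from P2 to P3 it was -0.20 ± 0.15 (adjusted p = 0.499).

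Ndufaf4 showed a different course. Its values were 9.20, 9.07 and 9.26 in Fed, 8.80, 8.92 and 8.84 in P2 and 8.98, 9.18 and 9.10 in P3. All P2 rats were below all fed rats and below all P3 rats, while Fed and P3 overlapped. It was lower in P2 by a log2 fold change of -0.32 ± 0.08 (adjusted p = 0.0407), a call that was lost without any 1 of 7 rats, all but P3 1 and P3 2. In P3 versus Fed it was at -0.09 ± 0.08 (adjusted p = 0.464), with a 95% interval from -0.28 to 0.09, and in P3 versus P2 at 0.23 ± 0.08 (adjusted p = 0.101). The interval in P3 does not reach the smallest fall among the 32 subunits, -0.55 for Ndufb11.

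Other assembly factors of complex I, with names outside the Nduf series, were lower in 4 of 7 cases in P2, 5 of 7 in P3 and 4 of 7 in P3 versus P2, with medians of -0.49, -0.68 and -0.37. The largest P3 values were those of the membrane arm factors Tmem126a (-1.64, adjusted p = 6.88e-07), Tmem126b (-1.38, adjusted p = 1.62e-05) and Tmem70 (-1.05, adjusted p = 5.65e-05). Timmdc1 (-0.11, adjusted p = 0.349) and Tmem186 (-0.06, adjusted p = 0.546) did not pass.

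Ndufa4 was at 12.94, 12.91 and 12.96 in Fed, 12.77, 12.81 and 12.77 in P2 and 12.57, 12.45 and 12.31 in P3. The groups did not overlap, but the steps were small. The log2 fold change was -0.15 ± 0.08 in P2 (adjusted p = 0.286), and -0.49 ± 0.08 for P3 (adjusted p = 0.00109). Its P3 fall was nominally smaller than that of any of the 32 complex I subunits, but differed from the smallest of these, -0.55 for Ndufb11, by less than its SE.

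Apart from Ndufaf4, Ndufs6-ps1 was the only gene of the 37 with no call in P3 versus Fed. It is described because no comparison passed, a choice made after its values were seen. It was at 10.67, 10.73 and 10.56 in Fed, 10.93, 10.68 and 10.60 in P2 and 10.58, 10.53 and 10.48 in P3. The P2 and fed rats overlapped, as did P3 and fed, while the P3 rats lay just below the P2 rats, of which P2 1 was the highest. Its log2 fold change was 0.08 ± 0.10 in P2 (adjusted p = 0.704), and -0.13 ± 0.10 for P3 (adjusted p = 0.387). A second probe set of the same symbol was at 0.08 and -0.09. Probes of a processed copy can also bind the RNA of the parent gene, and which of them these probe sets read cannot be told apart here.

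Further probe sets of the same genes moved in the same direction as those used. The second of Ndufs5 was at -0.91 in P2 and -1.80 in P3, against -0.94 and -1.93. That of Ndufb4 was at -0.27 and -0.73, against -0.36 and -0.98. The second of Ndufv3 was at -0.30 in P2 and did not pass (adjusted p = 0.196), whereas the one used was at -0.52 (adjusted p = 0.0343), and in P3 they were at -0.71 and -1.20. A probe set assigned to both Ndufa10 and Ndufa10l1, left out for its pair of symbols, was at -0.57 in P2 (adjusted p = 0.00180), and -1.13 for P3 (adjusted p = 5.31e-06), beside -0.36 and -0.99 for Ndufa10.

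The other complexes of the chain fell as well. All 4 measured subunits of complex II were lower in P2 and in P3 (medians -0.53 and -1.33). Of 7 complex III subunits, 4 were lower in P2 and 7 in P3 (-0.42 and -1.23). For complex IV, 3 of 10 were lower in P2 and 10 in P3 (-0.24 and -0.95), and for complex V, the ATP synthase, 6 of 14 and 14 of 14 (-0.38 and -0.96). The median falls of the complex I subunits, -0.51 and -1.32, were larger than those of complexes IV and V and close to those of complexes II and III, and these differences were not tested. Examples were Sdhd of complex II (-1.95), Uqcrh of complex III (-1.58), Cox5b of complex IV (-1.62) and Atp5mc3 of complex V (-2.11) in P3.

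Genes around the electron acceptor of complex I moved in both directions. Of 12 genes for ubiquinone synthesis and handling, 5 were lower in P2, and 8 were lower and 1 higher in P3, with medians of -0.31 and -0.999. Coq3 (-1.94, adjusted p = 1.88e-06) and Coq9 (-1.71, adjusted p = 7.26e-06), both needed to make ubiquinone, had the largest values, followed by Coq5 (-1.41). The single higher gene was Coq8b (0.85, adjusted p = 0.000108). Of 6 other enzymes that deliver electrons to ubiquinone, none was lower and 1 was higher in P2, and 2 were lower and 2 higher in P3. Prodh, the proline dehydrogenase, rose by 2.50 in P2 (adjusted p = 0.00184), and 2.56 for P3 (adjusted p = 0.000275), and Sqor, the sulfide quinone oxidoreductase, by 2.17 in P3 (adjusted p = 0.00309). Gpd2, the mitochondrial glycerol phosphate dehydrogenase, was at -1.22 in P3 (adjusted p = 1.66e-05).

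**Figure D4:**
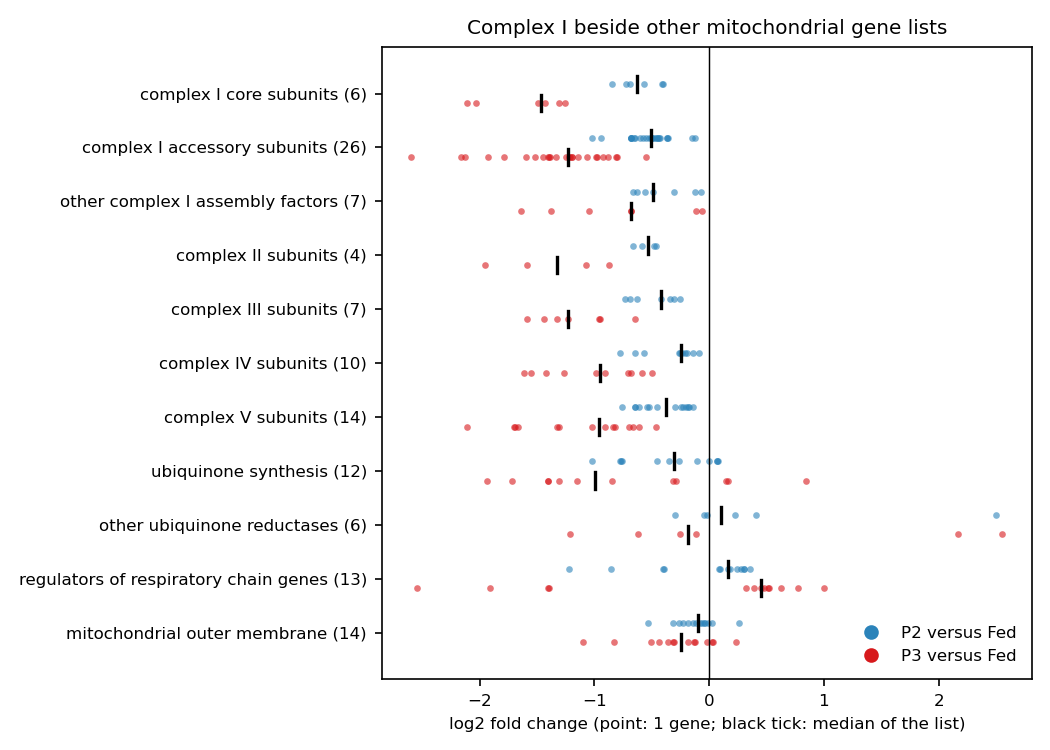
Log2 fold change of each gene (points) against Fed, for P2 (blue) and P3 (red), with the median of each list as a black tick and the number of genes in brackets. Complex I to V subunits all lie left of 0 in P3, while ubiquinone reductases and regulators spread to both sides and outer membrane genes lie closer to 0.

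Known regulators of respiratory chain genes were measured for 13 genes, of which 2 were lower and 2 higher in P2, and 4 lower and 9 higher in P3. The lower ones in P3 were the coactivators Ppargc1b (-2.55, adjusted p = 3.91e-07) and Ppargc1a (-1.91, adjusted p = 1.15e-05) and the nuclear receptors Esrra (-1.41, adjusted p = 1.81e-05) and Esrrg (-1.39, adjusted p = 0.000205). In P2, Ppargc1b (-1.22) and Esrrg (-0.86) had passed as lower, and Nrf1 (0.36, adjusted p = 0.0266) and Yy1 (0.30, adjusted p = 0.0359) as higher. The other 9 included Gabpa (1.00, adjusted p = 3.04e-05), Nrf1 (0.77, adjusted p = 0.000101), Yy1 (0.39, adjusted p = 0.00339) and Tfam (0.53, adjusted p = 0.0246), which act in the nucleus or on mitochondrial DNA. Of 14 proteins of the mitochondrial outer membrane, 1 was lower in P2 and 5 in P3, with medians of -0.10 and -0.24, beside -0.51 and -1.32 for the complex I subunits, a difference that was not tested. The pores Vdac1 (-0.13, adjusted p = 0.170) and Vdac3 (-0.18, adjusted p = 0.185) did not pass, and Samm50 had the largest value (-1.09, adjusted p = 2.62e-05).

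The letters of 4 binding motifs of such regulators were looked for on both strands in the 250 bases before the start of each gene (RefSeq, GRCr8), which could be read for 34 of the 37 genes. The motifs were GCGCANGCG for NRF1, AANATGGCG for YY1, CCGGAAGT for GABP and TCAAGGTCA for ERR. Matches of different motifs did not overlap in these genes, but NRF1 matches overlapped others on the opposite strand in Ndufa11 and Ndufaf4. NRF1 letters were found in 8 genes (23.5%, against 5.53% of 27457 promoters), GABP letters in 2 (5.88%, against 3.29%), YY1 letters in 1 (2.94%, against 1.45%) and ERR letters in none (0.368% of all promoters). With the 50 bases after the start included, YY1 letters were in 8 genes (23.5%, against 3.33%), of which 7 held them only after the start. NRF1 letters were then in 9 genes (26.5%, against 6.26%), with Ndufb10 added.

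The stretches with NRF1 letters before the start are shown because their genes range from a large fall to no call. They are in the order of the P3 log2 fold change, with the matched letters in capitals.
Ndufs5, chr5:141264498-141264556, minus strand, -1.93: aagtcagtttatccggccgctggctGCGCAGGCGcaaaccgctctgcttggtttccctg
Ndufa12, chr7:30658180-30658238, plus strand, -1.59: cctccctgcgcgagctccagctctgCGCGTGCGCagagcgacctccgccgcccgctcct
Ndufa11, chr9:1637492-1637557, plus strand, -1.45: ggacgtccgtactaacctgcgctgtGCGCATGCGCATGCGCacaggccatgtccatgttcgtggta
Ndufa6, chr7:115750318-115750363, minus strand, -1.21: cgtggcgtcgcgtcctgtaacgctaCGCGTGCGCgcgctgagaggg
Ndufv3, chr20:9613722-9613780, plus strand, -1.20: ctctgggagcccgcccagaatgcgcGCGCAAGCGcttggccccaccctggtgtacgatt
Ndufb4, chr11:76569042-76569100, plus strand, -0.98: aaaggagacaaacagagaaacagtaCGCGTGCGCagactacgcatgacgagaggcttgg
Ndufa5, chr4:53971236-53971292, minus strand, -0.81: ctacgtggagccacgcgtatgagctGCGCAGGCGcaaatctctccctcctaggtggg
Ndufaf4, chr5:43401612-43401671, plus strand, -0.09: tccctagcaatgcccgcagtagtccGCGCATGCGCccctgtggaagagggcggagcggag

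Ndufs5, Ndufa12 and Ndufa11 fell by more than the median subunit, Ndufa6, Ndufv3, Ndufb4 and Ndufa5 by less, and Ndufaf4 was not called in P3. The 7 subunits with NRF1 letters before the start had a median P3 log2 fold change of -1.21. The 23 without them there, among them Ndufb10, had one of -1.33. None of the 3 genes with the largest falls, Ndufb8, Ndufc2 and Ndufb5, held any of the searched letters before its start. With the 50 bases after the start included, Ndufb8 held YY1 letters, and Ndufc2 and Ndufb5 held none of the searched letters. Ndufs1 was the only gene with YY1 letters before its start, at the 3′ end of its stretch. GABP letters lay at the 5′ end, and both matches are in capitals.
Ndufs1, chr9:72073606-72073830, minus strand, -1.49: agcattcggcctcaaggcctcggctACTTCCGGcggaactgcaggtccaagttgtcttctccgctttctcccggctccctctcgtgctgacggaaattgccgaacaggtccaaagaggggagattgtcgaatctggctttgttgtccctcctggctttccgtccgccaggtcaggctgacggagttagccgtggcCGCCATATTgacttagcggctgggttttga
A match of letters describes the sequence and is no evidence of binding.

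Markers of slow fibres and fibro-adipogenic cells fell alongside the complex I genes, and the other marker lists differed. Of 8 slow fibre markers, 4 were lower in P2 and 7 in P3, with medians of -0.90 and -1.39, and their summed linear intensity was 13247 to 14955 in the fed rats, 6189 to 10455 in P2 and 4945 to 7704 in P3. Of 11 fast fibre markers, 1 was lower in P2 and 3 in P3, with medians of -0.01 and -0.11. Their sum was 120964 to 122842 in Fed, 114124 to 120456 in P2 and 102990 to 105101 in P3. For 9 of the 11, every P3 rat was below every fed rat, against 20.1% of all probe sets. The 8 not called in P3 had fed means of 13.37 to 13.97, and the 3 called 12.27 to 13.17. Whether signals this bright can still show a change was not tested. Of 9 markers of fibro-adipogenic cells, 1 was lower in P2 and 7 in P3, led by collagens such as Col1a1 (-4.18), and their sum ran from 15472 to 17323 in Fed, 6745 to 12587 in P2 and 4443 to 6958 in P3. Adipocyte markers were higher in 4 of 8 cases in P2 and in 1 in P3, where 1 was lower, with medians of 0.77 and -0.03. Their sums were 1928 to 1988 in Fed, 4004 to 5172 in P2 and 3905 to 4400 in P3. The 1 higher in P3 was Pnpla2 (1.93), which at a mean of 11.68 was the brightest of the list there, and the lower one was Fabp4 (-0.46). No macrophage (10) or endothelial (8) marker was called in P2, 1 of each list was higher in P3, and 1 of 4 satellite cell markers was lower in P3. The part of these shifts in the complex I values was not tested. In whole muscle, fewer cells or fibres of a type and less RNA per cell cannot be told apart.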

How the data were processed

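RNA of 9 tibialis anterior muscles was hybridized by the authors to Rat Gene 1.0 ST arrays. The deposited values are log2 intensities per probe set, made by the authors with RMA in Affymetrix Expression Console 1.1, which normalizes between arrays by quantiles. They were used as they are. Gene symbols came from the platform annotation, where 15310 probe sets have 1 symbol, 323 several and 13582 none, and all 37 symbols are current ones.

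Group means were fitted to the 9 arrays with limma 3.58.1 in R 4.3.3 (lmFit, eBayes, 2.87 prior degrees of freedom). Benjamini-Hochberg adjustment ran over all 29215 probe sets, with calls at 0.05. The scripts were tested on simulated data. Intervals are at 95%. Figures used Python 3.11.15 and matplotlib 3.10.9.

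The members, the gene lists and the tests were chosen with earlier results of these data known. Values per rat are given for the 3 genes with the largest and the 1 with the smallest P3 change in each role, Ndufs1 and Ndufa4. Of other lists, up to 3 genes with the largest P3 change are named with their fold changes. Ndufs6-ps1 and further genes were chosen after their values were seen.

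Precision is limited by 3 arrays per group, from separate rats. The alternatives were a second quantile normalization, centring on array medians, probe sets with a mean log2 of 5 or more, robust moderation with an intensity trend, weights for arrays, a fit of the 2 groups in question alone, averaging a gene's probe sets, a replicate block, the methods' ANOVA and Tukey test at p under 0.001, and each array left out.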

Additional observations from a re-analysis of the deposited data

How the results depend on the processing

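The P3 versus Fed calls of all 32 subunits were kept without each of the 9 arrays, and the counts of core and accessory subunits stayed at 6 and 26. In P2 versus Fed they ran from 2 to 6 and from 14 to 23 without single arrays, and assembly factors from 0 to 1. In P3 versus P2 the accessory count ran from 24 to 26. In P2 versus Fed, with only the groups compared in the fit, 3 core subunits and 0 assembly factors passed, with array weights 2 assembly factors did, and with an intensity trend and robust moderation 0. The methods' ANOVA and Tukey test at p under 0.001, a stricter threshold, called 1 core subunit, 6 accessory subunits and 0 assembly factors lower in P2 versus Fed. In P3 versus Fed it called 6 core and 22 accessory subunits, all but Ndufa3, Ndufa10, Ndufa1 and Ndufb11, and 1 assembly factor. In P3 versus P2 it called 5 core and 13 accessory subunits and 0 assembly factors. Over all probe sets, this test called 0.955% lower in P2 versus Fed, 4.27% in P3 versus Fed and 2.17% in P3 versus P2. The counts of this test were recomputed here. The study reported more complex I transcripts reduced in P2, from its own set of probes, and the difference was not examined. Without single arrays, the median of core minus accessory subunits ran from -0.155 to 0.0119 in P2 and from -0.26 to -0.13 in P3, and that of accessory subunits minus assembly factors from -0.25 to -0.14 in P2 and from -0.72 to -0.55 in P3. Ndufs6-ps1 in P2 versus Fed, 0.08 and not called, was at -0.0114 with array weights and ran from -0.0185 without P2 replicate 1 to 0.149 without P2 replicate 3. For these changes the cause was not tested.

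The labels name no pairing or batch behind the replicate numbers. Deviations from the group means correlated between same-numbered arrays at -0.24 to 0.12. Arrays with different numbers were not compared, so whether equal numbers share an order or batch was not tested. With the replicate block, 0 of 3 assembly factors were lower in P2 versus Fed, and 3 calls were lost in all, those of Ndufaf4, Ndufb10 and Ndufv3 in P2. The number of arrays, 3 per group, limits what could be detected in P2, where 7 subunits did not pass.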
